A study of Mus musculus with 2 samples.

Results

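ATF4 binding was mapped by CUT&Tag in neurons of C57BL/6 mice, and the peaks described here are those that lay at an end of a non-coding gene or pseudogene and at no end of a protein-coding gene. CUT&Tag tethers a transposase to an antibody on chromatin, so that fragments are cut where the antibody sits. The study comprised 2 libraries from neurons labelled as primarily cultured from cortex and hippocampus, one with an ATF4 antibody and one with IgG, each made from 100000 cells and 14 PCR cycles. The neurons were taken from embryos and grown as dissociated cultures, and no genotype or treatment is given in the labels of either library. Only the ATF4 library was analysed here, so there is no replicate error and no comparison with IgG was made; whether the deposited folds and p-values were set against IgG is not given in the sources used here. A peak list holds no expression values, so the labelled cell type could not be checked against marker genes.

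A peak was taken when its summit lay within 1000 bp of an end of a gene that RefSeq (GRCm38.p6) does not class as protein-coding, and more than 1000 bp from every protein-coding gene end. This rule kept 340 of the 7873 peaks, or 4.32% (Clopper-Pearson 95% interval 3.88 to 4.79%). A further 224 of the 564 peaks at a non-coding end were left out because a protein-coding end lay within the window too. The rule used positions and no measured value. The other peaks were 1527 at protein-coding ends and 6006 at no gene end.

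ATF4 is a basic leucine zipper transcription factor whose translation rises when the initiation factor eIF2α is phosphorylated during endoplasmic reticulum stress, amino acid shortage or oxidative stress. Together with C/EBP family partners it binds composite elements at genes of amino acid metabolism and transport. Non-coding genes fall into distinct groups: long non-coding RNAs (lncRNAs) are transcribed by RNA polymerase II, often from starts that face or overlap those of coding genes, whereas tRNAs, the 5S ribosomal RNA and Y RNAs are made by RNA polymerase III. Pseudogenes are copies of genes that have lost their coding capacity, and many have no promoter of their own.

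The windows around 7 lncRNA starts are shown because the summit of an ATF4 peak lay inside them. They comprise 4 with high fold enrichment (4930456A14Rik, Gm15743, Snhg8 and Gm2885), the brain-expressed Crnde, and the neuronal Miat and Mir9-3hg. Each runs 5′ to 3′ along the gene's own strand from 250 bases before to 50 bases after the RefSeq start. Capitals mark the 21 bases centred on the summit, or as many of them as fall in the window, and in Mir9-3hg the second run of capitals marks a full cyclic AMP response element.
4930456A14Rik: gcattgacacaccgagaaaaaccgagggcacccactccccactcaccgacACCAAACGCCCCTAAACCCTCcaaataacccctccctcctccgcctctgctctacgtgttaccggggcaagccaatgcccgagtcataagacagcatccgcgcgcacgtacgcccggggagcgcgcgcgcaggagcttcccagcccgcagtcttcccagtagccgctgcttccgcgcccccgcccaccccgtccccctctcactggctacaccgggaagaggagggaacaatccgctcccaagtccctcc
Gm15743: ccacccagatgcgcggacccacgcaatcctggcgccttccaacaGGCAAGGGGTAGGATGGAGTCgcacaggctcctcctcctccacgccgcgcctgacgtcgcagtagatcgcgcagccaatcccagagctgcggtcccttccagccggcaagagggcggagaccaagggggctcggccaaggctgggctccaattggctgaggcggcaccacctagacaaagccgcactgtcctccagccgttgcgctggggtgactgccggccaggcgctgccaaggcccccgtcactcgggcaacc
Snhg8: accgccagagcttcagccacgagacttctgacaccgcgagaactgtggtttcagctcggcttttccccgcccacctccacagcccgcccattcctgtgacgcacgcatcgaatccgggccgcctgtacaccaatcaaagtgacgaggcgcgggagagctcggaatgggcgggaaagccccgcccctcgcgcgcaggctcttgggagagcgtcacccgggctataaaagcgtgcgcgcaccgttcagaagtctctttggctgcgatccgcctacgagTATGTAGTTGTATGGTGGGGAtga
Gm2885: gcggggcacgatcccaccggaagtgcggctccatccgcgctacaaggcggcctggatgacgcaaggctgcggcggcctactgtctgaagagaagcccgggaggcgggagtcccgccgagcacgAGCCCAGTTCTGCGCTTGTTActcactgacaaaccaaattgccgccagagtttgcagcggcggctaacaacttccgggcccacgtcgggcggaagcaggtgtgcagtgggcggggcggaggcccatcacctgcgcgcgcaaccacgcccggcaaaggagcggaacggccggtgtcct
Crnde: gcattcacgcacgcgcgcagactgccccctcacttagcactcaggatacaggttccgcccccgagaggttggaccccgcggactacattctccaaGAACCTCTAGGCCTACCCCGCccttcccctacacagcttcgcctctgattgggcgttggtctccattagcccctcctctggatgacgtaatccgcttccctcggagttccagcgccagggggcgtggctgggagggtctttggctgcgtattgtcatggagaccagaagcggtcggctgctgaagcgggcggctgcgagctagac
Miat: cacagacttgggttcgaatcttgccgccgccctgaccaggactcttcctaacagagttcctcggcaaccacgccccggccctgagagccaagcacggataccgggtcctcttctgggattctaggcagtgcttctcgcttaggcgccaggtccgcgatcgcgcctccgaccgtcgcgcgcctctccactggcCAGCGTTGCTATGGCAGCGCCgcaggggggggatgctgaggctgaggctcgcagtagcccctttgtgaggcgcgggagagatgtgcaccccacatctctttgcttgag
Mir9-3hg: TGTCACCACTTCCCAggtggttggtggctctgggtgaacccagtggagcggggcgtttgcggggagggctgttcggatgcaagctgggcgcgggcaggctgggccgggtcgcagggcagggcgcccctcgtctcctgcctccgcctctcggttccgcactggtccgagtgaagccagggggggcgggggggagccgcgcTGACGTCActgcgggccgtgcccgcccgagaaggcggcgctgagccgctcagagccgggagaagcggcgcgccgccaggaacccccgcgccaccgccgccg

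In GRCm38.p6 the window of 4930456A14Rik is at chr7:126502184-126502483 on the plus strand, and that of Gm15743 is at chr16:31429727-31430026 on the minus strand. The window of Snhg8 is at chr3:123508287-123508586 on the minus strand, and that of Gm2885 is at chr17:6827967-6828266 on the minus strand. The window of Crnde is at chr8:92356071-92356370 on the minus strand, and that of Miat is at chr5:112228899-112229198 on the minus strand. The window of Mir9-3hg is at chr7:79499776-79500075 on the plus strand. The summit lay 190 bases before the start in 4930456A14Rik, 196 before it in Gm15743, 117 before it in Gm2885, 145 before it in Crnde, 48 before it in Miat and 246 before it in Mir9-3hg. In Snhg8 it lay 36 bases past the start, inside the transcribed part.

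Most of these peaks lay at lncRNA genes. By the kind of the nearest non-coding gene, 234 of the 340 peaks were at a lncRNA (68.8%, 63.6 to 73.7%), 58 at a pseudogene (17.1%, 13.2 to 21.5%) and 6 at a transcribed pseudogene. Genes of small RNAs accounted for 41: 10 snoRNA, 10 miRNA, 9 snRNA, 8 tRNA, 2 rRNA and 2 Y RNA peaks. The remaining peak lay at Igkv1-88, a variable segment of the immunoglobulin kappa locus. The 340 peaks had 335 different nearest genes, since Gm17801, Gm31920, Gm33730, Pdxk-ps and Rny1 each took 2 peaks, and 16 peaks had more than 1 non-coding gene in the window. All 21 chromosomes of the peak list held at least 1 of them.

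Support for the peaks was low and close to that of the whole list. The number of fragments at a summit was solved from the deposited fold enrichment and p-value, and its median was 4 (quartiles 3 and 6, range 3 to 133), against 4 over all peaks. The median fold enrichment over the local background was 4.33 (quartiles 3.67 and 5.42, range 2.94 to 19.2), against 4.33 over all peaks, 5.04 at protein-coding ends and 4.17 at no gene end. At least 6 fragments were present in 93 of the 340 peaks (27.4%, 22.7 to 32.4%), where the share over all peaks was 24.3%. The corresponding shares were 44.9% (42.3 to 47.4%) at protein-coding ends and 18.8% (17.9 to 19.9%) at no gene end, so for this measure the interval of the non-coding peaks lay between those of the other groups and overlapped neither. A q-value of at most 1e-05 was reached by 59 (17.4%, 13.5 to 21.8%), against 18.3% of all peaks, 32.0% (29.7 to 34.4%) at protein-coding ends and 14.8% (13.9 to 15.7%) at no gene end; here the interval overlapped that of peaks at no gene end. Only 3 fragments lay under 128 of them (37.6%), against 41% of all peaks, and at least 20 fragments under 9, or 2.65% (1.22 to 4.97%) against 2.35% of all peaks, an interval that overlapped those of both other groups. Intervals here and below reflect counting error alone, since fragments copied by PCR need not be independent, and the differences between groups of peaks of 1 library were not tested.

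**Figure D1:**
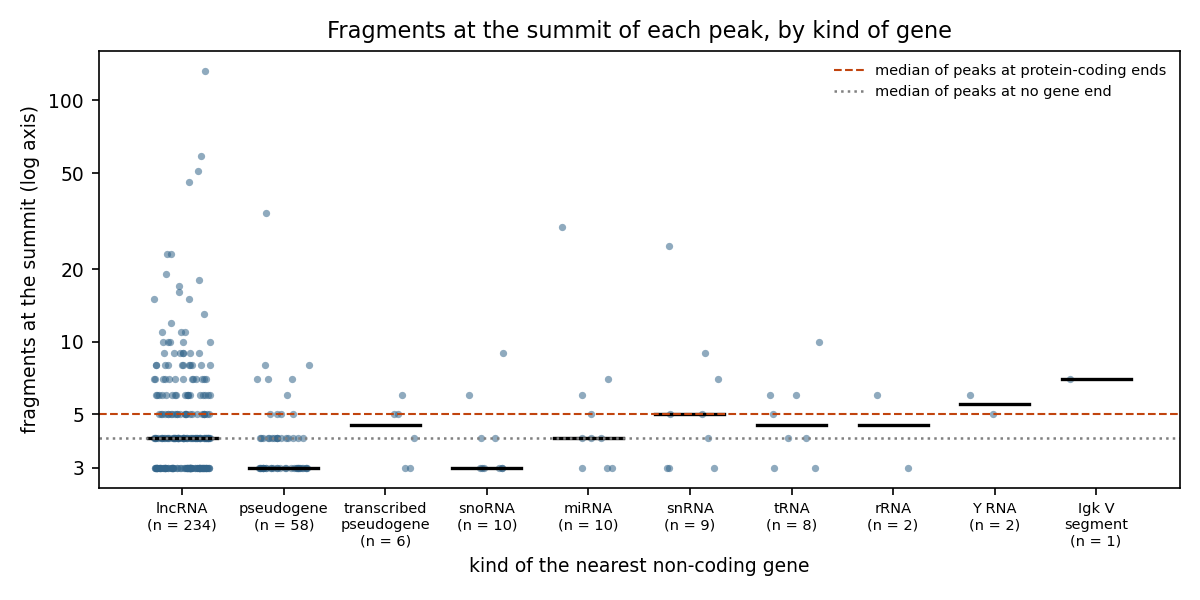
Fragments at the summit (vertical log axis) of each of the 340 peaks, by the kind of the nearest non-coding gene; each point is a peak, spread sideways for legibility, and black bars are medians. The dashed and dotted lines are the medians of peaks at protein-coding ends (5) and at no gene end (4). Most points lie between 3 and 10 fragments, and the 4 highest, from 46 to 133, are lncRNA peaks.

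LncRNAs were the nearest non-coding gene for 14 of the 15 highest folds, where their share over all 340 peaks was 68.8%. At least 20 fragments were present in 2.56% of the lncRNA peaks (0.947 to 5.50%) and in 2.65% of the 340. The peak with the highest fold enrichment (19.2) lay 340 bp inside the start of Gm27011, a lncRNA within Banp, which encodes a DNA-binding nuclear protein. It spanned chr8:121950065-121950544 and held 46 fragments (exact Poisson 95% interval 33.7 to 61.4) over a background of 1.45, with a q-value of 9.28e-48. The peak with the most fragments lay 985 bp inside the start of Gm26812, at chr8:121850776-121851668, and 694 bp before another transcript start of that lncRNA. It held 133 fragments (111.4 to 157.6) over a background of 7.53, a 15.7-fold enrichment with a q-value of 5.29e-109, and ranked 26 among all 7873 peaks by p-value.

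These 2 peaks flanked Slc7a5, the gene of the light chain of the large neutral amino acid transporter. Between their summits, 99.1 kb apart, 2 further peaks lay inside Slc7a5 or near its end. BC048644 and Car5a lie between Slc7a5 and the Gm27011 peak. One, inside the gene and 9116 bp from its nearer end, held 118 fragments (97.7 to 141.3) at 15.01-fold. The other lay 242 bp from an end of Slc7a5 and 95 bp from an end of the lncRNA BC048644, held 17 fragments (9.90 to 27.2) at 6.66-fold, and was therefore not counted as non-coding. The interval of the Gm26812 peak overlapped that of the peak inside Slc7a5, and both lay above those of the remaining peaks of the locus. The nearest coding ends were those of Gm42048, at 7269 bp, for the Gm26812 peak and of Banp, at 2333 bp, for the Gm27011 peak.

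**Figure D2:**
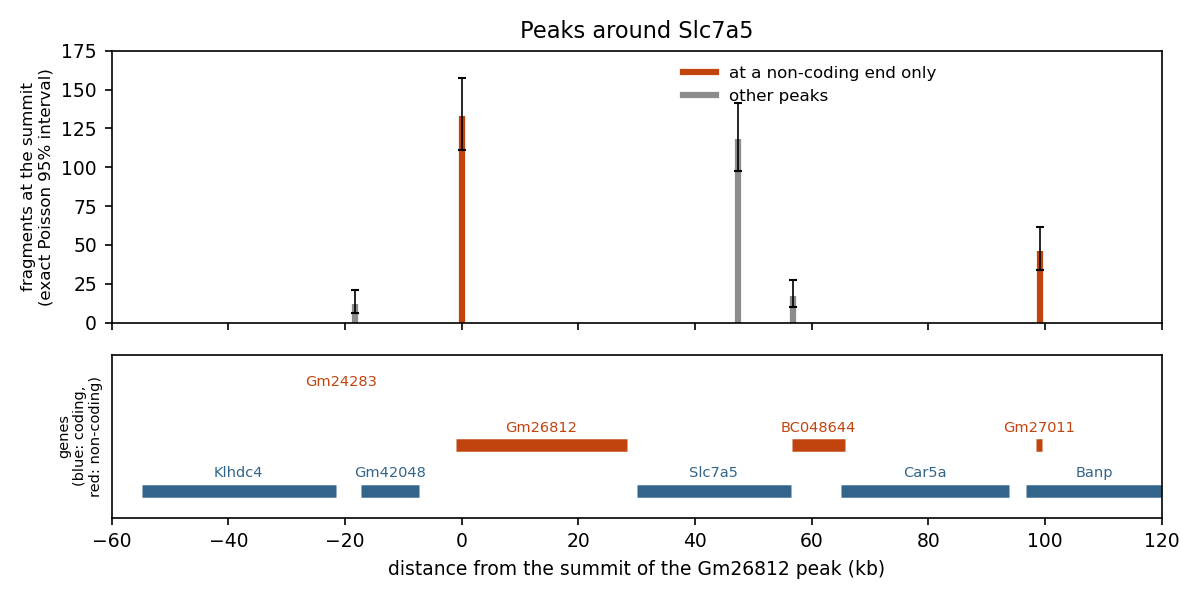
Fragments at the summit of each peak around Slc7a5 (upper panel, bars with exact Poisson 95% intervals) and the genes there (lower panel), by distance in kb from the summit of the Gm26812 peak. The Gm26812 (133 fragments) and Gm27011 (46 fragments) peaks stand on either side of Slc7a5. The peak inside Slc7a5 held 118 fragments, and the one between the ends of Slc7a5 and BC048644 held 17.

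The third highest fold enrichment was at 4930456A14Rik, whose promoter window is printed above. The peak held 51 fragments (37.97 to 67.1) at 14.1-fold, 190 bp before the lncRNA's start and within Atxn2l, which encodes an RNA-binding protein related to ataxin-2. The ends of Atxn2l in the gene table were 5575 bp or more away, yet a start of another Atxn2l transcript lay 181 bp from the summit. The Gm15743 peak, inside Bdh1, the gene of the mitochondrial enzyme that interconverts ketone bodies, held 23 fragments (14.6 to 34.5) at 13.1-fold. The Gm34661 peak on the X chromosome also held 23 fragments, at 11.5-fold, and its nearest coding end, that of the RNA helicase gene Ddx3x, was 53512 bp away.

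Snhg8, a host gene from whose introns a snoRNA is processed, carried a peak of 13 fragments (6.92 to 22.2) at 10.7-fold, with the summit 36 bp inside the start shown above and 1698 bp from an end of Prss12, the gene of the synaptic protease neurotrypsin. The Gm40477 peak lay 3 bp inside an end of that lncRNA and held 15 fragments (8.40 to 24.7) at 10.5-fold; the nearest coding gene was the immediate early gene Fos, 37436 bp away. The Gm40237 peak held 59 fragments (44.9 to 76.1) over a background of 4.84, giving 10.3-fold. This lncRNA is 1118 bp long, so the summit, 347 bp inside the stop and 770 bp inside the start, was in the window of both ends, and another transcript start lay 503 bp before it. Gm2885 carried 18 fragments (10.7 to 28.4) at 10.1-fold.

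Lockd, a lncRNA downstream of the cell cycle inhibitor gene Cdkn1b, carried a peak of 17 fragments (9.90 to 27.2) at 9.07-fold, 691 bp before its start and 2876 bp from Cdkn1b. Crnde, which is transcribed away from the homeobox gene Irx5, carried 10 fragments (4.80 to 18.4) at 7.68-fold, 145 bp before its start and 1531 bp from Irx5. The other lncRNAs among the 15 highest folds were 4930539N22Rik, Gm42160, Gm52095 and Gm33542, with 10 to 12 fragments at 9.24- to 9.94-fold. The Poisson intervals of the peaks of 10 to 18 fragments all overlapped, so their order among themselves was not resolved by counting.

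**Figure D3:**
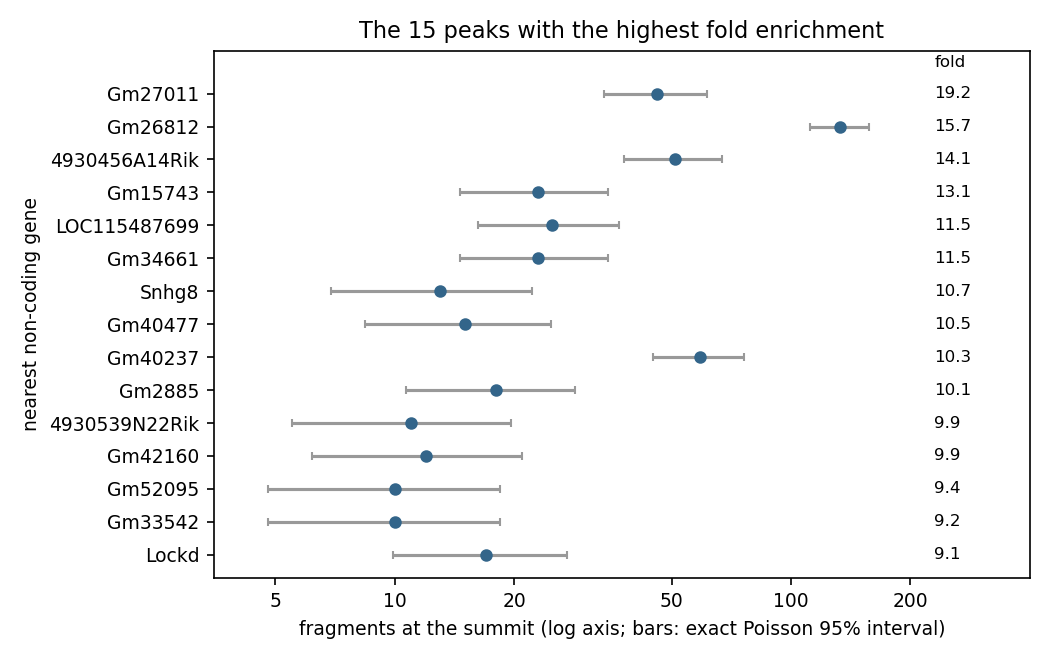
Fragments at the summit (horizontal log axis, points with exact Poisson 95% intervals) of the 15 peaks with the highest fold enrichment, with the fold at the right. Gm26812 has the most fragments (133), and the intervals of the peaks with 10 to 18 fragments overlap.

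The lncRNA peaks sat more often at starts than at stops. Strand was known for 171 of the 234 lncRNA peaks, and the summit was nearer the start in 117 and nearer the stop in 54; in 7 of the 171 both ends of the gene were in the window. Counted over the 9533 lncRNA genes with a strand, 119 had one of these peaks within 1000 bp of the start (1.25%, 1.04 to 1.49%) and 60 within 1000 bp of the stop (0.629%, 0.481 to 0.809%). With all peaks of the list the figures were 250 starts (2.62%, 2.31 to 2.96%) and 83 stops (0.871%, 0.694 to 1.08%). At protein-coding genes 7.47% of starts (7.09 to 7.87%) and 0.846% of stops (0.716 to 0.993%) had a peak. The lncRNA stop share over all peaks thus lay within the interval of the coding stops, while the lncRNA start share lay below that of the coding starts. Start and stop peaks had similar support: at least 6 fragments in 35.0% (26.5 to 44.4%) of the start peaks and in 31.5% (19.5 to 45.6%) of the stop peaks.

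**Figure D4:**
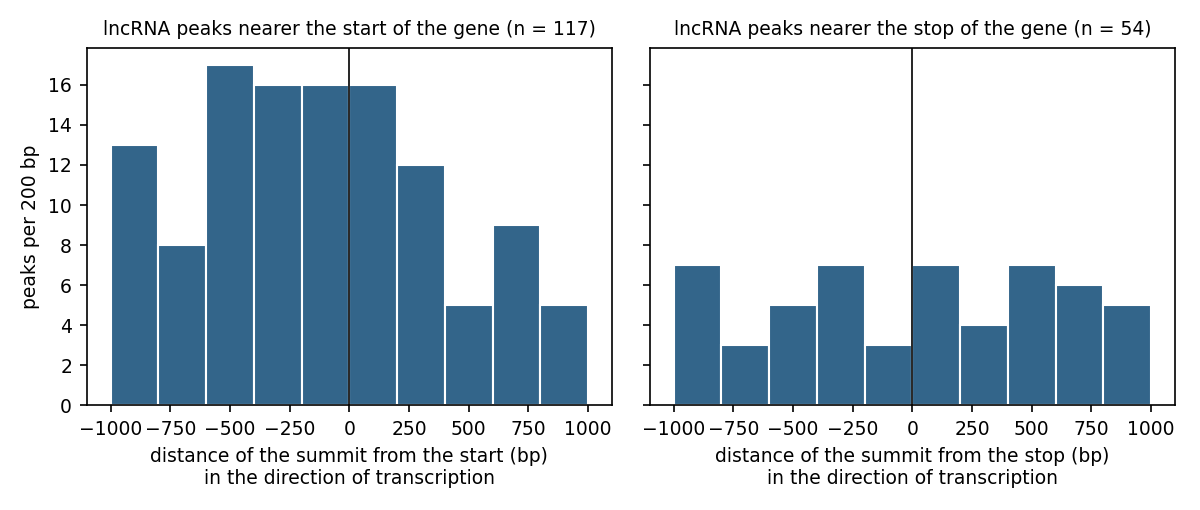
LncRNA peaks with a known strand, by distance of the summit from the start (left, n = 117) or the stop (right, n = 54) of the nearest lncRNA, in the direction of transcription and in bins of 200 bp. The start peaks number 117 and cover both sides of the start, with fewer beyond 400 bp inside the gene; the 54 stop peaks show no single mode.

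Around lncRNA starts the summits were spread over the window. Of the 117 start peaks, 13 lay within 100 bp, 32 between 100 and 250 bp, 25 between 250 and 500 bp and 47 between 500 and 1000 bp; the 100 to 250 bp band covers 15% of the window and held 27.4% of the summits. Over all 340 peaks, 40 summits (11.8%) lay within 100 bp of the non-coding end and 139 (40.9%) between 500 and 1000 bp, bands that cover 10% and 50% of the window. The summit fell outside the non-coding gene in 211 peaks (62.1%) and inside it in the rest. At least 6 fragments were present in 22.5% (15.6 to 30.7%) of the inside peaks and in 30.3% (24.2 to 37.0%) of the outside peaks.

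Peaks at lncRNAs with a curated transcript more often held at least 6 fragments than those at predicted ones. The 77 peaks at a lncRNA with a curated RefSeq transcript had a median of 5 fragments and 5.19-fold enrichment, and 35 (45.5%, 34.1 to 57.2%) had at least 6 fragments. The 157 at a lncRNA with model transcripts had a median of 4 fragments and 4.20-fold, and 36 (22.9%, 16.6 to 30.3%) had at least 6. The intervals of these shares did not overlap. Those of the share with a q-value of at most 1e-05 did, at 26.0% (16.6 to 37.2%) for curated and 17.2% (11.6 to 24.0%) for model transcripts, and at least 20 fragments were present in 2.60% and 2.55%. The curated share lay beside the 44.9% of protein-coding ends and the model share beside the 24.3% of all peaks.

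A minority of the peaks lay inside coding genes or at coding starts that the gene table does not list as ends. The summit was inside a protein-coding gene in 106 of the 340 peaks (31.2%, 26.3 to 36.4%), against 48.9% of all peaks and 47.3% of the peaks at no gene end. In 22 peaks, inside a coding gene as the rule requires, a protein-coding transcript start lay within 1000 bp. Of these peaks, 14 were within 1000 bp of a lncRNA start as well. The coding starts included, besides that of Atxn2l, those of Tlk2 (chromatin-associated kinase), 61 bp from the 1700052K11Rik peak of 10 fragments, Prdm10 (zinc finger protein), 197 bp from the Gm10910 peak of 9 fragments, and Nup210 (nuclear pore protein), 285 bp from the Gm30364 peak of 8 fragments. At least 6 fragments were present in 10 of the 22 (45.5%, 24.4 to 67.8%) and in 83 of the other 318 (26.1%, 21.4 to 31.3%). Transcript starts were available for 17492 of 21887 protein-coding genes and for none on chromosome 18. The 22 are therefore a lower count, and the other 318 include peaks that could not be assessed. The same count over all peaks was not made. Which of the overlapping genes a peak serves cannot be read from its position.

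Some named lncRNAs of neurons had peaks, with fragment numbers near the median of the list. Of 23 lncRNAs known from neurons and brain, 22 were in the gene table and 4 had a peak within 1000 bp (18.2%, 5.19 to 40.3%), all of them at no coding end. The share with a peak was 4.74% over all genes of the table and 3.29% over lncRNA genes, and the list is too short for a narrow interval. Miat, a nuclear lncRNA of neurons, had 6 fragments (2.20 to 13.1) at 5.80-fold, 48 bp before the start shown above. Mir9-3hg and Mir124a-1hg, the hosts of the neuronal microRNAs miR-9 and miR-124, had 4 fragments each (1.09 to 10.2), at 246 and 241 bp. Kcnq1ot1, an imprinted antisense lncRNA, had 3 fragments (0.619 to 8.77) at 3.51-fold. Of these 4, Miat alone had 6 fragments, a level reached by a peak at 2.07% of all genes. Of 17 snoRNA host genes, 2 had a peak (11.8%, 1.46 to 36.4%): Snhg8, described above, and Gas5, whose 6 fragments lay 367 bp from Gas5 but 104 bp from the coding gene Zbtb37.

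Annotated lncRNA genes had a peak less often than coding genes and more often than pseudogenes. Of 12736 lncRNA genes, 419 had a summit of any peak within 1000 bp of an end (3.29%, 2.99 to 3.61%), against 1780 of 21887 protein-coding genes (8.13%, 7.77 to 8.50%) and 66 of 9944 pseudogenes (0.664%, 0.514 to 0.844%). Of the 419 lncRNA genes, 233 had one of the 340 peaks. With peaks of at least 6 fragments the shares were 1.26% of lncRNA genes (1.07 to 1.47%), 3.74% of coding genes and 0.101% of pseudogenes (0.0482 to 0.185%). Genes shorter than the window cover less sequence around their ends, and the median lengths were 17169 bp for coding genes, 8427.5 bp for lncRNA genes, 910 bp for pseudogenes and 72 bp for tRNA genes.

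**Figure D5:**
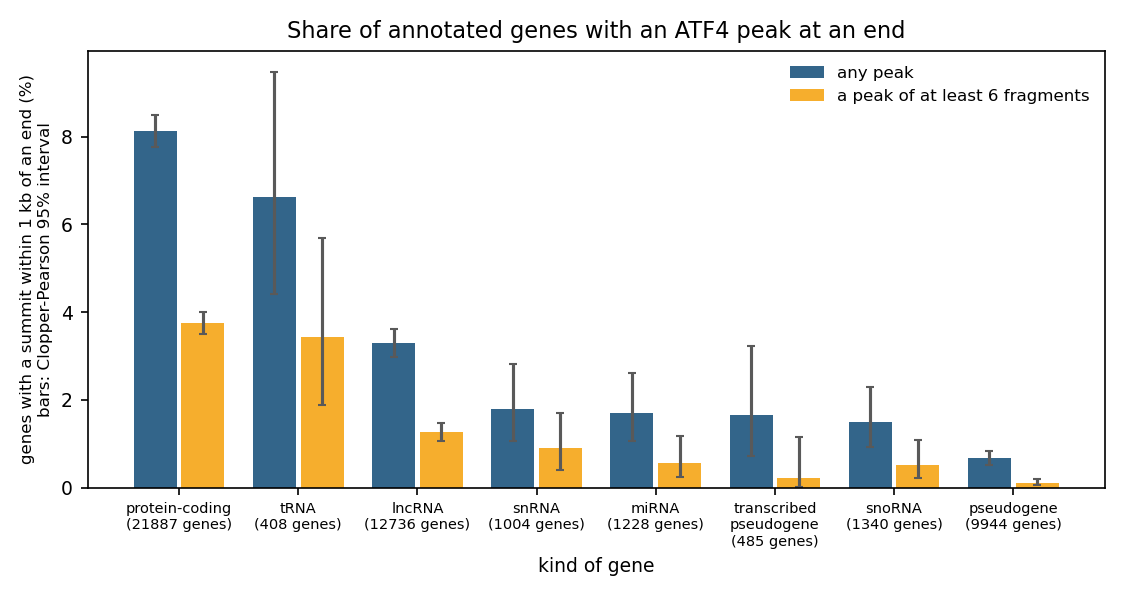
Share of the annotated genes of each kind (%) with a summit of any peak (blue) or of a peak of at least 6 fragments (yellow) within 1 kb of an end; bars carry Clopper-Pearson 95% intervals. Of the 8 kinds drawn, coding genes (8.13%) and tRNA genes (6.62%) have the highest shares, with a wide interval for tRNA genes, and pseudogenes (0.664%) the lowest.

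Pseudogene peaks had lower median fragments and fold enrichment than lncRNA peaks. The 58 peaks had a median of 3 fragments and 3.68-fold enrichment, 31 (53.4%) held only 3 fragments, and 7 (12.1%, 4.99 to 23.3%) held at least 6, an interval below that of the lncRNA peaks (71 of 234, 30.3%, 24.5 to 36.7%). The most fragments, 34 (23.5 to 47.5), lay 259 bp from Rn18s-rs5, a copy related to 18S ribosomal RNA, but the local background there was 10.9 fragments, and the fold of 2.94 was the lowest of all 340 peaks. Gm5990 followed with 8 fragments at 7.73-fold, Gm8343 with 8 at 5.67-fold, and Gm17826, Gm49261 and Gm48201 with 7 each. Of the 6 transcribed pseudogene peaks, the highest was that of Gm16386 with 6 fragments at 6.20-fold, and Pdxk-ps had a peak of 5 and one of 4 fragments. Reads from near-identical copies can be placed at more than 1 position, and how such reads were handled is not given in the sources used here, so the assignment of pseudogene and small RNA peaks to 1 copy is uncertain.

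Some of the peaks at tRNA genes lay at more than 1 tRNA gene. Of 408 tRNA genes, 27 had a peak within 1000 bp (6.62%, 4.41 to 9.48%), against 4.74% of all genes, and 14 a peak of at least 6 fragments (3.43%, 1.89 to 5.69%), against 2.07%. Each interval contains the share over all genes. Each lies above the share over genes that are not protein-coding, 2.096% with any peak and 0.763% with at least 6 fragments. Genes that share a peak are not independent, so these intervals may be too narrow. The 27 genes lay at 16 peaks, 6 of them with more than 1 tRNA gene and 10 with a single one. Of the 16 peaks, 8 had no coding gene end within 1000 bp; these 8 covered 17 tRNA genes, with at most 4 at 1 peak, and 3 of them lay at a single tRNA gene. The strongest lay 18 bp inside n-THgtg3, a histidine tRNA gene, with 10 fragments (4.80 to 18.4) at 6.34-fold. The serine gene n-TSgct3 had 6 fragments at 19 bp, and the alanine gene n-TAagc8 had 6 at 397 bp, 5155 bp from the stress-inducible gene Sesn2. Fragments numbered 5 at the leucine gene n-TLcag5, 4 at the threonine gene n-TTtgt3 and at the glycine gene n-TGtcc3, and 3 at the glycine gene n-TGgcc8 and the arginine gene n-TRtcg5. The n-TRtcg5 summit, 228 bp from the tRNA gene, lay inside Polg, the gene of the mitochondrial DNA polymerase, and 82 bp from a Polg transcript start. In 4 of the 8 the summit lay within 20 bp of the tRNA gene's end. None of the 8 intervals separated one tRNA peak from another.

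Beyond the tRNA genes, the list of RNA polymerase III genes held 3 with a peak, Rny1, Rn7sk and Rn7s1. Of all 419 listed genes, 408 of them the tRNA genes above, 30 had a peak (7.16%, 4.88 to 10.1%, against 4.74% of all genes) and 16 one of at least 6 fragments (3.82%, 2.20 to 6.13%, against 2.07%). Over genes that are not protein-coding these shares were 2.096% and 0.763%. One of the peaks described here lay at 19 of the 419, of which 17 were tRNA genes that shared 8 peaks. The share of genes with such a peak was 0.715% over all genes, 1.27% over those not protein-coding and 4.17% (2.45 to 6.59%) over tRNA genes. Rny1, which encodes a Y RNA, had a peak of 6 fragments at 662 bp and another of 5 at 236 bp. Rn7sk, whose RNA holds the elongation factor P-TEFb inactive, lay 292 bp from a summit of 4 fragments whose nearest gene was the lncRNA C920006O11Rik. Rn7s1, a gene of the signal recognition particle RNA, lay 188 bp from a summit of 6 fragments that was 79 bp from the ribosomal protein gene Rps29 and so was not counted as non-coding. In the tandem 5S ribosomal RNA array on chromosome 8, with 49 genes over 83.3 kb, n-R5s129 had 6 fragments, Rn5s-ps1 had 6 and n-R5s119 had 3. Of all 63 rRNA genes, 2 had a peak (3.17%, 0.387 to 11.0%), an interval that contains the 4.74% of all genes.

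Genes of small nuclear RNAs (snRNAs), most of which serve in the spliceosome, gave 9 peaks, and 1 of these was among the strongest in the whole group. LOC115487699, annotated as a snRNA gene, lay 602 bp from the summit of a peak of 25 fragments (16.2 to 36.9) at 11.5-fold, at chr1:171502219-171502622, with a q-value of 2.73e-20. Its nearest coding end was that of Alyref2, which is related to an mRNA export adaptor gene, at 1032 bp. Gm25313 had 9 fragments at 7.94-fold and Gm23444 had 7. Rnu11, the gene of the U11 RNA of the minor spliceosome, and Rnu2-10, a U2 gene, had 5 fragments each. Over the annotation, 18 of 1004 snRNA genes, Rn7sk included, had a peak (1.79%, 1.07 to 2.82%), against 4.74% of all genes and 2.096% (1.93 to 2.27%) of all genes that are not protein-coding.

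Peaks at snoRNA genes were mostly of 3 or 4 fragments. Of 1340 snoRNA genes 20 had a peak (1.49%, 0.914 to 2.30%, against 4.74% of all genes and 2.096% of those not protein-coding), and 10 of the 340 peaks had a snoRNA gene as the nearest. Of these 10, 3 lay in Snhg14, the long host transcript of the imprinted region next to Snrpn, where 148 snoRNA genes lie within 509.04 kb; 3 of the 148 had a peak within 1000 bp (2.03%, 0.420 to 5.81%), an interval that contains the share over all snoRNA genes. LOC115486763 had 9 fragments (4.12 to 17.1) at 6.13-fold, Gm25210 had 6 at 4.20-fold and Gm24760 had 3 at 3.68-fold. They lay 210890 to 230940 bp from the nearest coding end, that of Snrpn.

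Of 1228 miRNA genes 21 had a peak (1.71%, 1.06 to 2.60%, against 4.74% of all genes and 2.096% of those not protein-coding), and 10 of the 340 peaks had one as the nearest non-coding gene. Mir101c stood apart, with 30 fragments (20.2 to 42.8) at 7.43-fold, 658 bp from the gene; Mir6976 followed with 7, Mir3093 with 6 and Mir7010 with 5, and the other 6 had 3 or 4. The Mir3093 peak lay 820 bp from that gene but 131 bp from a transcript start inside the lncRNA Gm3764, which the gene table does not list as an end, and it is the peak of the Gm3764 window in the motif search. The mature miR-101c is shown, with bases 2 to 8, the seed, in capitals.
mmu-miR-101c: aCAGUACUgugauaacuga
It lies at chr9:3038680-3038698 on the minus strand. The local background under the Mir101c peak was 3.17 fragments, against a median of 0.155 over the 340 peaks. The same 40 kb of chromosome 9 held 11 further peaks with 31 to 1009 fragments, over backgrounds of 3.33 to 37.1, none of them at a gene end. What sets the high background there was not tested.

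Few of the promoter windows that hold these summits carried one of the motifs searched, and their number was too small to set them apart from other windows. The RefSeq promoter table gave 28 lncRNA windows of 300 bases with the summit of one of these peaks inside, and 3 motifs were searched in them on both strands. TGATGNAA, the core of the C/EBP-ATF response element, was in 0 of the 28, which allows a share of up to 12.3% (Clopper-Pearson); it was in 3.97% of all promoter windows, 4.64% of lncRNA windows and 6.73% (4.91 to 8.96%) of the 639 coding windows that hold a summit. TGACGTCA, the full cyclic AMP response element, was in 2 of the 28 (7.14%, 0.877 to 23.5%), against 1.79% of all windows and 0.975% of lncRNA windows. These were Mir9-3hg, where the motif begins 51 bases before the start, and Gm3764, where it begins 91 bases before it, with summits 246 and 131 bases before the start. CACGTG, an E-box, was in 1 of the 28, 2010204K13Rik, against 7.15% of all windows. With 28 windows the intervals are wide and contain the share over all windows for each motif.

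The windows with a summit were rich in G and C. The median GC content of the 28 was 61.3%, against 48.3% over 11588 lncRNA windows, 62.0% in coding windows that hold a summit and 56.3% over 21263 coding windows. GC content ranged from 43.0% in C920006O11Rik to 75% in Mir9-3hg and Gm10190. Of the windows printed above, those of 4930456A14Rik, Gm15743 and Gm2885 had 65.3%, 68.3% and 67.7%. How far the GC content of fragments bears on these counts was not tested.

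The peaks at the limits of the rule differed in size. Just inside the 1000 bp limit to a non-coding end were the peaks of Gm41169 (991 bp, 5 fragments) and Platr6 (986 bp, 4 fragments), and just outside it those of Gm52046 (1004 bp) and Gm39040 (1006 bp), with 3 fragments each. At the limit to coding ends, LOC115487699 (1032 bp from Alyref2, 25 fragments) and Gm15850 (1036 bp from the kinesin gene Kif21b, 19 fragments) were kept, whereas Gm24124 (976 bp from Olfr1489, 3 fragments) and Gm35591 (898 bp from the clock gene Per2, 9 fragments) were not. Distance to the nearest coding end was 1 to 3 kb in 41 peaks, 3 to 10 kb in 79, 10 to 100 kb in 162 and over 100 kb in 58, with median fragments of 5, 4, 4 and 4.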

How the data were processed

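CUT&Tag libraries were made with 1 ATF4 and 1 IgG antibody; the IgG library was not analysed here. The submitters' processing notes name FastQC, BWA, MACS2 2.1.2, deepTools and the build mm10, without settings. For the ATF4 library the authors deposited each called peak with its position, a fold enrichment (a ratio over the estimated local background), −log10 p-values and q-values, and a score that repeats the q-value. Whether IgG served in peak calling, and how duplicates and reads with several positions were treated, is not given in the sources used here.

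Fragments and background at each summit were solved from fold and p, taking the fold as fragments plus 1 over background plus 1 and p as a Poisson upper tail (tolerance 0.001 of −log10 p; solved for 7873 of 7873 peaks). If single reads were piled up, these are reads. On simulated data, fragments were recovered in 100% of 2000 peaks and the position rule in 100% of 3000. Gene ends came from the RefSeq table of GRCm38.p6 (49943 genes), the assembly that mm10 names; strand, starts and sequences came from the RefSeq promoter table (27025 genes, of which 9533 lncRNA). It held no tRNA gene, so the B box search planned for tRNA genes was not run. Genes were named as the 15 peaks of highest fold, the 5 with most fragments per kind of gene, small RNA peaks (at most 12 per kind), listed genes with a peak and the 2 peaks on each side of each limit, and some of these are printed. Crnde, the peaks near other coding starts, the genes with 2 peaks and the windows shown were picked with their values known. The members and lists were chosen with earlier results of these data known. Alternatives were other windows, peak overlap, stricter peaks, autosomes only and added coding starts. Computations used Python 3.11.15 with the packages numpy 2.4.6 and scipy 1.17.1 for counts and intervals, pandas 2.3.3 for tables, and matplotlib 3.10.9 for figures. With 1 library no test between conditions was possible, and peaks are not replicates.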

Additional observations from a re-analysis of the deposited data

How the results depend on the processing

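Of 94 values recomputed, 38 moved beyond their counting interval (counts by over 1.5 times) and 56 did not. A window of 500 bp gave 219 peaks (2.78% of the list) and one of 3000 bp gave 687 (8.73%). In both, the limit to coding ends was changed together with that to non-coding ends. Changing the limit to coding ends alone to 3000 bp gave 3.80%. With q-values of at most 1e-05, 59 peaks remained, 79.7% at a lncRNA and 10.2% at a pseudogene of either kind, with a median fold of 7.35, a median of 9 fragments and 100% with at least 6. With at least 6 fragments, 93 remained (4.87% of such peaks), 76.3% at a lncRNA and 8.60% at a pseudogene, with a median fold of 6.63, a median of 8 fragments and 63.4% at that q-value. These 2 filters keep the stronger peaks by construction. Genes with a peak, as 1000 bp and all peaks gave 419 lncRNA, 66 pseudogene, 27 tRNA, 18 snRNA, 20 snoRNA and 21 miRNA genes, changed as follows. With the non-coding peaks alone there were 233 lncRNA, 17 tRNA, 13 snoRNA and 11 miRNA genes. With at least 6 fragments there were 160 lncRNA, 10 pseudogene, 14 tRNA, 9 snRNA, 7 snoRNA and 7 miRNA genes. With 500 bp there were 272 lncRNA, 41 pseudogene, 9 snRNA, 13 snoRNA and 12 miRNA genes, and with 3000 bp there were 800, 185, 35, 54 and 57. Peak overlap, autosomes only and added coding starts, the last chosen after seeing the data, moved none of the values they were applied to. No paired analysis was possible because each antibody had 1 library. Most peaks rest on 3 to 5 fragments, so peaks of such size have wide intervals, and peaks below the caller's threshold are not in the list.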
